A study of Mus musculus with 6 samples.

Results

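The genes that anchor the basal corneal epithelial cell to its basement membrane were examined in bulk RNA-seq of mouse corneal epithelial cells. The group holds 9 genes, selected by gene symbol, of the 17784 genes in the deposited table: *Itga6*, *Itgb4*, *Itga3*, *Lama3*, *Lamb3*, *Col17a1*, *Col7a1*, *Plec* and *Dst*. There were 3 samples of *Prrx1-CreERT;Ptch1f/f* mice, called Ptch1Prrx1, and 3 of *Ptch1f/f* mice, called control. *Prrx1-CreERT* is a tamoxifen-inducible recombinase described as working in keratocytes and in mesenchymal cells elsewhere in the eye, with the corneal endothelium among the cells it reaches, so the deletion of *Ptch1*, the receptor that restrains Hedgehog signaling, was directed at cells beneath the epithelium. Both groups carried floxed *Ptch1* and both received 3 doses of tamoxifen, with 2 months of treatment and mice 10 weeks old in the sample labels. The study's text gives an age of 2 months at induction, so the age at which the epithelium was taken is uncertain. Epithelial cells were separated from the cornea with EDTA, and the RNA was taken from the whole epithelial preparation, without single cells. The study states biological replicates, but the labels do not tie a sample to a mouse. The p values therefore weigh group differences against the spread between these samples, which may not be that between mice.

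A hemidesmosome is a plaque on the basal face of an epithelial cell. Its core is integrin α6β4, which holds laminin-332 outside the cell and, inside it, the plakins plectin and BP230, which bind keratin filaments. Collagen XVII crosses the membrane beside the integrin, collagen VII forms the anchoring fibrils that reach into the stroma, and integrin α3β1 is another laminin-332 receptor, outside the plaque. In the cornea these structures keep the epithelium attached to the stroma, and inherited loss of several of them causes blistering.

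Depth ranged from 20296741 expected counts in Ptch1Prrx1 replicate 3 to 20625813 in Ptch1Prrx1 replicate 1, with the other 4 samples between. A gene with 0 counts could still lie below 3 counts, or 0.145 to 0.148 CPM (counts scaled to the library total), a limit that covers counting error only. Values are given as normalized counts, which are counts scaled to a common library size. The lowest value of any of the 9 genes in any sample was 1572 normalized counts. The deleted gene, *Ptch1*, had 517, 659 and 682 normalized counts in control replicates 1, 2 and 3, and 390, 445 and 471 in Ptch1Prrx1 replicates 1, 2 and 3. Every Ptch1Prrx1 sample was below every control for *Ptch1*, where the groups did not overlap for 39.9% of tested genes, and the cause was not tested. These are levels in epithelial cells, outside the cells in which *Prrx1-CreERT* is described as active.

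The label of corneal epithelium was checked against marker genes. *Krt12*, the cornea-specific keratin, had 37110 to 49490 TPM (a level scaled for gene length and library size) in the 6 samples. Of the 5 corneal epithelium markers 0 passed edgeR's test between groups or that of DESeq2, and 1 had an unadjusted p under 0.05. The 7 keratocyte markers, of which 6 were listed, summed to 2.7, 1.63 and 29.09 TPM in control replicates 1, 2 and 3, and to 4.87, 4.2 and 2.55 TPM in Ptch1Prrx1 replicates 1, 2 and 3. Control replicate 3 was far above the other samples, and *Col1a2*, the most abundant of these markers, gave 25.98 TPM of its sum. The vascular endothelium markers summed to at most 0.32 TPM, and the Schwann cell markers to at most 2.5 TPM. On the first principal component of all 12999 tested genes, which held 56.7% of the variance, controls had scores of -34.92 to -27.37. The scores were 19.16 for Ptch1Prrx1 replicate 2 and 20.03 for replicate 3, but 53.76 for replicate 1, which stood apart. For the 9 genes the log2 fold change is therefore also given without that replicate.

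Of the 9 genes, 4 rose in Ptch1Prrx1 epithelium, 0 fell and 5 did not pass the test. The 4 were *Itga6*, *Itgb4*, *Itga3* and *Lamb3*. To pass, a gene needed an adjusted p no higher than 0.05 in edgeR's quasi-likelihood test, with Benjamini-Hochberg adjustment over 12999 tested genes, and all 9 genes were among those tested. By unadjusted p under 0.05, 5 of the 9 were higher and 0 lower, where 17.0% of tested genes were higher and 33.5% differed in either direction. DESeq2 also gave 5 and 0, where 10.9% of genes rose and 19.4% changed in either direction. Across all tested genes 14.0% passed in either direction and 7.61% passed with higher levels in Ptch1Prrx1. None of the 9 combined an adjusted p of at most 0.05 with a fold change of at least 2, which 3.23% of tested genes did, and no fold change of the 9 reached 2 whatever its p. The groups did not overlap for 5 of the 9, against 39.9% of tested genes. The log2 fold changes of the 9 had a median of 0.31, where that of all tested genes was -0.01, and lay above 0 for 7 genes. The list is short and its count is a description of these 9 genes. In bulk RNA, fewer or more cells of a type and less or more RNA per cell cannot be told apart.

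**Figure D1:**
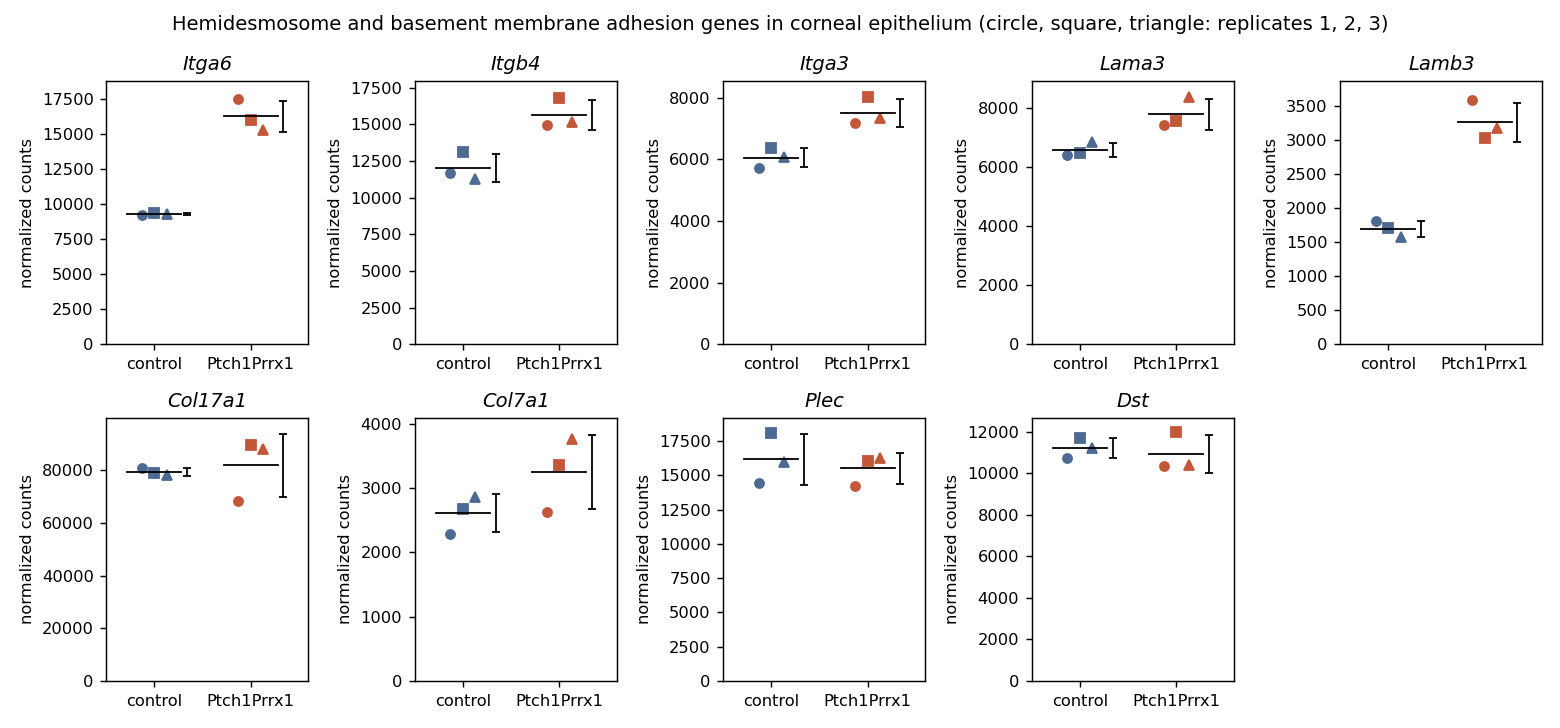
Normalized counts (y axis, from 0) of the 9 adhesion genes in each of the 3 control and 3 Ptch1Prrx1 samples. Horizontal lines are group means and bars beside them are 1 SD. For *Itga6* and *Lamb3* all Ptch1Prrx1 samples lie well above the control samples, while for *Col17a1*, *Plec* and *Dst* the groups overlap.

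Among the integrins, *Itga6* (gene 16403), which encodes the α6 subunit of the plaque, had 9187, 9339 and 9300 normalized counts in control replicates 1, 2 and 3. It had 17467, 16003 and 15285 in Ptch1Prrx1 replicates 1, 2 and 3. The controls lay close together, and every Ptch1Prrx1 sample was higher than every control. Its log2 fold change was 0.81 (SE 0.07, adjusted p = 0.00376, edgeR's quasi-likelihood test), a fold of 1.75, and it was 0.76 (adjusted p = 0.00168) without Ptch1Prrx1 replicate 1.

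*Itgb4* (gene 192897) encodes the β4 subunit, which pairs with α6 and carries the long cytoplasmic tail that recruits plectin. It had 11686, 13105 and 11283 normalized counts in control replicates 1, 2 and 3, and 14976, 16808 and 15154 in Ptch1Prrx1 replicates 1, 2 and 3. The groups did not overlap, but replicate 2 was the highest sample of each. Its log2 fold change was 0.38 (SE 0.09, adjusted p = 0.0309, edgeR's quasi-likelihood test), a fold of 1.30. *Itga3* (gene 16400), the α3 subunit of the other laminin receptor, had 5726, 6360 and 6062 normalized counts in control and 7174, 8014 and 7322 in Ptch1Prrx1 replicates 1, 2 and 3. Here too every Ptch1Prrx1 sample was above every control. Its log2 fold change was 0.31 (SE 0.07, adjusted p = 0.0358, edgeR's quasi-likelihood test), a fold of 1.24.

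Both calls were near the threshold. The adjusted p of *Itgb4* was 0.0908, 0.0764 and 0.0906 without control replicates 1, 2 and 3, and 0.0806 and 0.0509 without Ptch1Prrx1 replicates 2 and 3. For *Itga3* these values were 0.103, 0.0998 and 0.0906 for the controls and 0.0938 and 0.0584 for the Ptch1Prrx1 replicates. Without Ptch1Prrx1 replicate 1 both genes passed, with log2 fold changes of 0.41 (adjusted p = 0.0355) for *Itgb4* and 0.35 (adjusted p = 0.0364) for *Itga3*. On log2(TPM + 1) values, limited to genes whose mean TPM reached 1, limma gave *Itga3* an adjusted p of 0.0826 and *Itgb4* one of 0.0483. With no such filter neither gene passed, at 0.114 and 0.0762. Their log2 fold changes stayed above 0 in all of these fits.

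*Lama3* and *Lamb3* encode the α3 and β3 chains of laminin-332, the ligand of both integrins. *Lamb3* (gene 16780) had 1807, 1711 and 1572 normalized counts in control replicates 1, 2 and 3, and 3582, 3023 and 3170 in Ptch1Prrx1 replicates 1, 2 and 3. The lowest Ptch1Prrx1 sample was far above the highest control. Its log2 fold change was 0.94 (SE 0.09, adjusted p = 0.00376, edgeR's quasi-likelihood test), a fold of 1.92, which was the highest of the 9 genes. Without Ptch1Prrx1 replicate 1 it was 0.87 (adjusted p = 0.00202). *Lama3* (gene 16774) had 6418, 6493 and 6854 normalized counts in control and 7423, 7570 and 8398 in Ptch1Prrx1 replicates 1, 2 and 3. These groups did not overlap either. For *Lama3* the log2 fold change was 0.24 (SE 0.07), and the adjusted p of 0.0625 in edgeR's quasi-likelihood test missed the threshold. It was 0.0170 with DESeq2. Leaving out Ptch1Prrx1 replicate 1 gave a log2 fold change of 0.28 (adjusted p = 0.0557).

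Levels of these laminin chains can be compared with each other on the TPM scale, which allows for gene length. There *Lama3* had means of 106.8 in control and 126.5 in Ptch1Prrx1 samples, and *Lamb3* 45.2 and 84.3. In control samples the *Lama3* level was 2.2, 2.35 and 2.56 times that of *Lamb3* in replicates 1, 2 and 3. In Ptch1Prrx1 replicates 1, 2 and 3 this ratio was 1.32, 1.56 and 1.63, below every control. A two-sided exact permutation test gave p = 0.1, the smallest that 3 samples against 3 allow, and 0.167 after Benjamini-Hochberg adjustment over the 5 ratios reported.

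The integrin ratio was examined in the same way. The TPM of *Itga6* relative to that of *Itgb4* was 0.793, 0.720 and 0.829 in control replicates 1, 2 and 3, and 1.18, 0.959 and 1.02 in Ptch1Prrx1 replicates 1, 2 and 3. Every Ptch1Prrx1 sample had a higher ratio than every control. The exact two-sided permutation p was 0.1, the smallest possible, with 0.167 after adjustment. For integrin α3β1, the ratio of *Itga3* to *Itgb1* was 1.53 ± 0.191 (SD, n = 3) in control and 1.47 ± 0.167 in Ptch1Prrx1 samples (exact permutation p = 0.8). The samples of the 2 groups were mixed in that ratio.

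**Figure D2:**
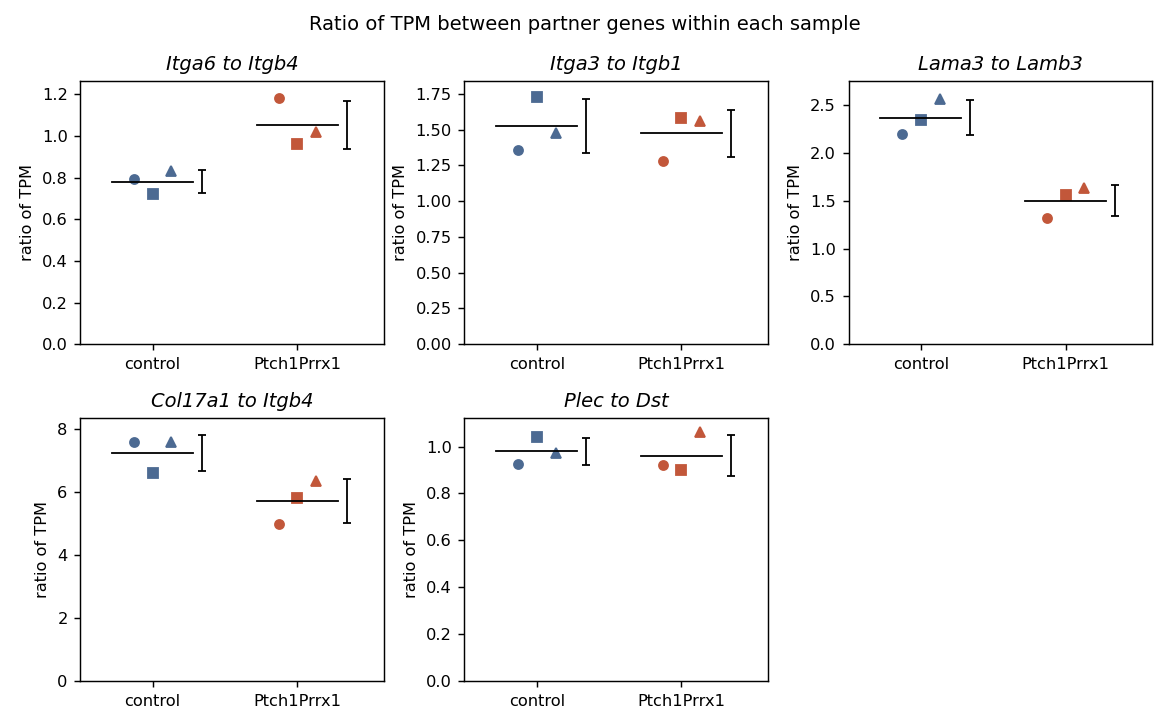
Ratio of TPM (y axis, from 0) between genes of one complex or plaque in each of the 3 control and 3 Ptch1Prrx1 samples. Circles, squares and triangles are replicates 1, 2 and 3, lines are group means and bars 1 SD. Groups do not overlap for *Itga6* to *Itgb4*, *Lama3* to *Lamb3* and *Col17a1* to *Itgb4*, and overlap for *Itga3* to *Itgb1* and *Plec* to *Dst*.

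*Col17a1* (gene 12821) encodes collagen XVII, the transmembrane collagen of the plaque, and was the most abundant of the 9 genes in every sample. Its TPM of 1533 in control samples placed it 78th among all 17784 listed genes. It had 80978, 78957 and 78145 normalized counts in control replicates 1, 2 and 3, and 68186, 89548 and 88086 in Ptch1Prrx1 replicates 1, 2 and 3. Ptch1Prrx1 replicate 1 was below all controls and the other Ptch1Prrx1 samples were above them. Between groups the log2 fold change was 0.05 (SE 0.12, adjusted p = 0.815, edgeR's quasi-likelihood test). Without Ptch1Prrx1 replicate 1 it was 0.17 (adjusted p = 0.187). The sign changed without Ptch1Prrx1 replicate 2, at -0.02, and without replicate 3, at -0.009. Relative to *Itgb4*, its TPM ratio was 7.57, 6.58 and 7.56 in control and 4.97, 5.81 and 6.35 in Ptch1Prrx1 replicates 1, 2 and 3. All Ptch1Prrx1 samples had the lower ratio, at the smallest exact permutation p of 0.1 (0.167 adjusted).

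*Col7a1* (gene 12836), the gene of the anchoring fibril collagen, had 2283, 2681 and 2863 normalized counts in control and 2624, 3363 and 3761 in Ptch1Prrx1 replicates 1, 2 and 3. The lowest Ptch1Prrx1 sample, replicate 1, lay among the controls. Its log2 fold change was 0.32 (SE 0.14, adjusted p = 0.162, edgeR's quasi-likelihood test). Without Ptch1Prrx1 replicate 1 it passed, at 0.45 (adjusted p = 0.0415).

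The cytoplasmic linkers showed no difference that passed the test. *Plec* (gene 18810), the gene of plectin, which ties β4 to keratin, had 14412, 18099 and 15973 normalized counts in control and 14221, 16027 and 16264 in Ptch1Prrx1 replicates 1, 2 and 3. *Dst* (gene 13518), whose epithelial product is BP230, had 10726, 11719 and 11193 in control and 10356, 11972 and 10403 in Ptch1Prrx1 replicates 1, 2 and 3. In both genes the values of the groups were interleaved. Their log2 fold changes were -0.06 (SE 0.10, adjusted p = 0.719) for *Plec* and -0.04 (SE 0.08, adjusted p = 0.771) for *Dst* in edgeR's quasi-likelihood test. Both lay near 0 without Ptch1Prrx1 replicate 1, at 0.0015 for *Plec*, whose sign changed, and -0.00015 for *Dst*. The ratio of *Plec* to *Dst* in TPM was 0.980 ± 0.0569 (SD, n = 3) in control and 0.960 ± 0.0864 in Ptch1Prrx1 samples (exact permutation p = 0.7). *Dst* also makes long neuronal and muscle forms, and a gene-level count adds all forms together.

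By TPM the order of the 9 genes was much the same in all samples. *Col17a1* held place 1, *Itga3* place 4 and *Lamb3* place 8 in every sample. *Itgb4* held place 2 and *Itga6* place 3 in all controls, and they changed places in Ptch1Prrx1 replicates 1 and 3. *Lama3* held places 6 or 7 in controls and 5 or 6 in Ptch1Prrx1 samples, among *Plec* and *Dst*. The mean TPM of *Plec*, *Dst* and *Lama3* in control samples was 115.5, 117.6 and 106.8, and these neighbours interchanged between samples. *Col7a1* was last in every sample.

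Direct partners of the plaque were *Cd151*, *Krt5*, *Krt14* and *Erbin*, of which *Krt14* rose. *Krt5* and *Krt14* encode the keratin pair of basal cells, whose filaments the plakins hold. *Krt14* (gene 16664) had 8184, 7760 and 9282 normalized counts in control and 93094, 48670 and 35434 in Ptch1Prrx1 replicates 1, 2 and 3. The lowest Ptch1Prrx1 sample was several times the highest control, and replicate 1 was the highest. This gave a log2 fold change of 2.81 (SE 0.34, adjusted p = 0.00769, edgeR's quasi-likelihood test). It was 2.33 (adjusted p = 0.000770) without Ptch1Prrx1 replicate 1, and the adjusted p was 0.0538 without control replicate 2. *Krt14* can share reads with other type I keratin genes.

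*Krt5* had a mean TPM of 24550 in control and 24600 in Ptch1Prrx1 samples, with a log2 fold change of 0.04 (adjusted p = 0.816, edgeR's quasi-likelihood test). *Cd151*, the tetraspanin that binds laminin-binding integrins, had a log2 fold change of -0.07 (adjusted p = 0.476). *Erbin*, which binds the β4 tail, had one of 0.07 (adjusted p = 0.481).

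**Figure D3:**
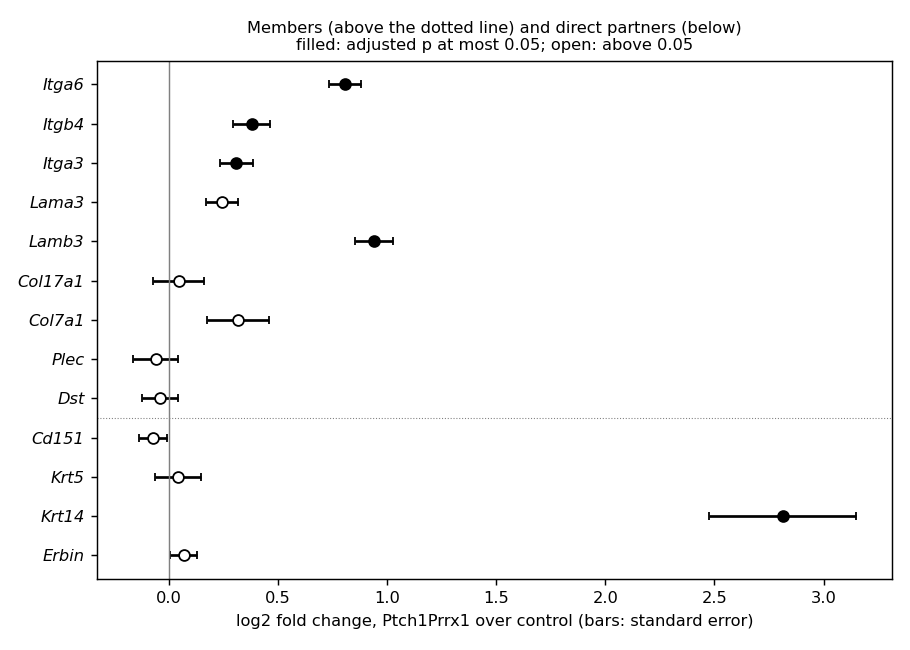
The log2 fold change (x axis) of the 9 adhesion genes and 4 direct partners, Ptch1Prrx1 over control, with bars for 1 standard error. Filled points have an adjusted p of at most 0.05. *Krt14*, *Lamb3* and *Itga6* lie farthest to the right, and *Col17a1*, *Plec*, *Dst*, *Cd151*, *Krt5* and *Erbin* lie near 0.

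Markers of the epithelial layers were set beside these changes. The basal layer markers (*Krt5*, *Krt14*, *Krt15*, *Trp63*) summed to 26760, 26820 and 25800 TPM in control and 32630, 30830 and 28970 in Ptch1Prrx1 replicates 1, 2 and 3. *Krt5* was the most abundant of them, and of the 4 only *Krt14* passed the test, where 7.61% of all tested genes rose. *Krt14*, with a mean of 570.9 TPM in control and 3824 TPM in Ptch1Prrx1 samples, carried most of the difference in the basal layer sum. *Krt15* had means of 1157 and 2206 TPM. *Trp63*, the basal cell transcription factor, had a log2 fold change of -0.03 (adjusted p = 0.838, edgeR's quasi-likelihood test), and *Krt15* one of 0.99 (adjusted p = 0.126); both are named after their values were seen. The upper layer markers (*Upk1b*, *Muc4*, *Muc16*, *Grhl3*) summed to 2892, 2845 and 2904 TPM in control and 3444, 3288 and 3017 in Ptch1Prrx1 replicates 1, 2 and 3. Of these 3 of 4 rose, against 7.61% of all tested genes, and *Upk1b*, the most abundant, did not pass. *Muc4*, with a mean of 1041 TPM in control and 1429 TPM in Ptch1Prrx1 samples, carried most of the difference in the upper layer sum, and *Muc16* was below 1 TPM in every sample.

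The conjunctiva markers, of which *Krt13* was the most abundant and *Muc5ac* was not listed, summed to 1396, 1853 and 2322 TPM in control and 4673, 2182 and 2894 in Ptch1Prrx1 replicates 1, 2 and 3. Of the 4 listed, 1 passed the test, where 14.0% of all tested genes did. This was *Krt8*, which fell, with a log2 fold change of -0.91 (adjusted p = 0.0139, edgeR's quasi-likelihood test). The other 3 had positive values that missed the threshold, 1.80 (adjusted p = 0.0685) for *Krt4*, 1.46 (adjusted p = 0.0793) for *Krt19* and 0.68 (adjusted p = 0.107) for *Krt13*. All 3 were higher by unadjusted p under 0.05 and 1 of them, *Krt4*, by DESeq2 (adjusted p = 0.0381). Of all tested genes, 17.0% were higher by unadjusted p and 10.9% by DESeq2. *Krt4* had 2129, 2956 and 4292 normalized counts in control and 19042, 3428 and 10191 in Ptch1Prrx1 replicates 1, 2 and 3. Its Ptch1Prrx1 replicate 2 lay among the controls, and replicate 1 was the highest sample. *Krt8*, *Krt4* and *Krt19* are named after their values were seen. The immune markers summed to 57.83, 53.7 and 64.75 TPM in control and 78.1, 53.38 and 58.77 in Ptch1Prrx1, led by *Cd68*. The corneal endothelium markers summed to 24.0 to 29.89 TPM, nearly all *Slc4a11*, with 2 of the 3 below 1 TPM in every sample. The groups overlapped in the conjunctiva and immune sums, and the part of these cells in the levels of the 9 genes was not tested.

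The other genes of the basement membrane did not move in one direction. Of 31 listed, 25 were tested, and 4 rose, 4 fell and 17 did not pass, with a median log2 fold change of -0.10; over all tested genes 14.0% passed. By unadjusted p under 0.05, 7 were higher and 7 lower, against 33.5% of tested genes in either direction, and by DESeq2 5 and 7. The 4 that rose were *Fbln1*, *Tinagl1*, *Col18a1* and *Col4a4*. *Fbln1*, the gene of the matrix protein fibulin 1, had 1432, 1578 and 1416 normalized counts in control and 3165, 2638 and 2628 in Ptch1Prrx1 replicates 1, 2 and 3. Its groups were well apart, with a log2 fold change of 0.93 (SE 0.09, adjusted p = 0.00466, edgeR's quasi-likelihood test). That of *Tinagl1* was 0.56 (adjusted p = 0.0370). *Col18a1* and *Col4a4* were expressed at low level, with means of 0.927 and 0.080 TPM in control and 2.47 and 0.240 TPM in Ptch1Prrx1 samples.

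The 4 that fell were *Frem1*, *Npnt*, *Smoc2* and *Nid1*. *Frem1*, a member of the Fraser complex, which joins epithelium to mesenchyme, had 179.9, 149.4 and 90.27 normalized counts in control and 5.17, 8.21 and 17.92 in Ptch1Prrx1 replicates 1, 2 and 3. All Ptch1Prrx1 samples were far below the controls, with a log2 fold change of -3.72 (SE 0.44, adjusted p = 0.00769, edgeR's quasi-likelihood test), which was -4.36 without Ptch1Prrx1 replicate 3. *Npnt*, the gene of nephronectin, had one of -0.98 (adjusted p = 0.0347), *Smoc2*, a matrix calcium-binding protein, one of -1.39 (adjusted p = 0.0386), and *Nid1*, which links laminin to collagen IV, one of -0.49 (adjusted p = 0.0459). The other Fraser complex genes of the list missed the threshold in edgeR's test, with -0.66 (adjusted p = 0.0533) for *Fras1* and -0.62 (adjusted p = 0.114) for *Frem2*. Their groups did not overlap, and both passed with DESeq2 (adjusted p = 0.00417 for *Fras1* and 0.0279 for *Frem2*). *Lamb1*, the gene of another laminin chain, was also lower, with a log2 fold change of -0.46 (adjusted p = 0.0771, edgeR's quasi-likelihood test). Its means were 87.7 TPM in control and 62.4 TPM in Ptch1Prrx1 samples. The groups did not overlap for *Lamb1*, which passed with DESeq2 (adjusted p = 0.0183). These genes are named after their values were seen. *Lama2*, *Lama4*, *Nid2*, *Col4a3*, *Col15a1* and *Fbln2* had too few counts to test.

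Of 10 tested integrin subunits outside the 9 genes, 2 rose and 1 fell, with a median log2 fold change of 0.17. By unadjusted p under 0.05, 3 were higher and 1 lower, and by DESeq2 2 and 1. Over all tested genes 14.0% passed edgeR's test in either direction, 33.5% had an unadjusted p under 0.05 and 19.4% passed DESeq2. *Itgb1*, the partner of α3, had 3625, 3173 and 3542 normalized counts in control and 4834, 4371 and 4062 in Ptch1Prrx1 replicates 1, 2 and 3. The groups did not overlap, and its log2 fold change of 0.36 (SE 0.09, adjusted p = 0.0375, edgeR's quasi-likelihood test) was near that of *Itga3*. *Itga5*, the fibronectin receptor subunit, rose by 1.76 (adjusted p = 0.0426) from a low mean of 0.480 TPM to 1.58 TPM. Its log2 fold change was 2.42 without control replicate 3, and it passed in 7 of 14 alternative settings. *Itgb5*, a subunit of a vitronectin receptor, fell by 0.41 on the log2 scale (adjusted p = 0.0171). Of the 5 other matrix receptors tested 0 passed edgeR's test, where 2 were higher and 1 lower by unadjusted p under 0.05 and 1 each way passed DESeq2. The most abundant, *Sdc1* and *Sdc4*, had log2 fold changes of -0.12 (adjusted p = 0.231) and 0.19 (adjusted p = 0.169).

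Focal adhesions join integrins to actin and not to keratin. Of 18 tested genes of their proteins 3 rose and 0 fell, with a median of 0.12, where 14.0% of all tested genes passed in either direction. By unadjusted p under 0.05, 7 were higher and 1 lower, 8 of 18 in all against 33.5% of tested genes, and by DESeq2 5 were higher and 1 lower. The calls that DESeq2 added were *Actn1* (adjusted p = 0.0211) and *Tns1* (adjusted p = 0.0247), both higher, and *Ilk* (adjusted p = 0.0209), lower, named after their values were seen. The 3 that rose in edgeR's test were *Zyx* (0.57, adjusted p = 0.0186, edgeR's quasi-likelihood test), *Vcl* (0.41, adjusted p = 0.0415) and *Pxn* (0.24, adjusted p = 0.0462), given as log2 fold changes. Of 5 other plakins, 1 rose, *Macf1*, the microtubule and actin linker, with a log2 fold change of 0.47 (adjusted p = 0.0256). By unadjusted p under 0.05, and likewise by DESeq2, 3 of these 5 were higher and 0 lower. The shares of all tested genes in either direction were 14.0% by edgeR's test, 33.5% by unadjusted p and 19.4% by DESeq2. Of 7 tested proteases that act on these proteins 2 rose, *Furin* (0.57, adjusted p = 0.00448) and *Mmp14* (0.44, adjusted p = 0.0253). Among all tested genes 7.61% rose. None fell in edgeR's test, where 1 was lower by unadjusted p under 0.05 and 1 by DESeq2.

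Of the 17 companion genes that passed, *Fbln1* and *Furin* passed in all 15 alternative settings, and *Frem1* in all 12 settings that tested it. Between 3 and 10 of the 17 passed when a single sample was left out, the fewest without control replicate 2. Without Ptch1Prrx1 replicate 1, *Col4a4*, *Npnt*, *Smoc2*, *Nid1*, *Itgb1*, *Itga5*, *Vcl* and *Pxn* lost their call. The least stable calls were *Col4a4*, which passed in 2 of 12 settings and not with DESeq2 (adjusted p = 0.0559), *Pxn*, which passed in 4 of 15, and *Npnt* and *Smoc2*, each in 6 of 15. None of the 17 changed direction.

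**Figure D4:**
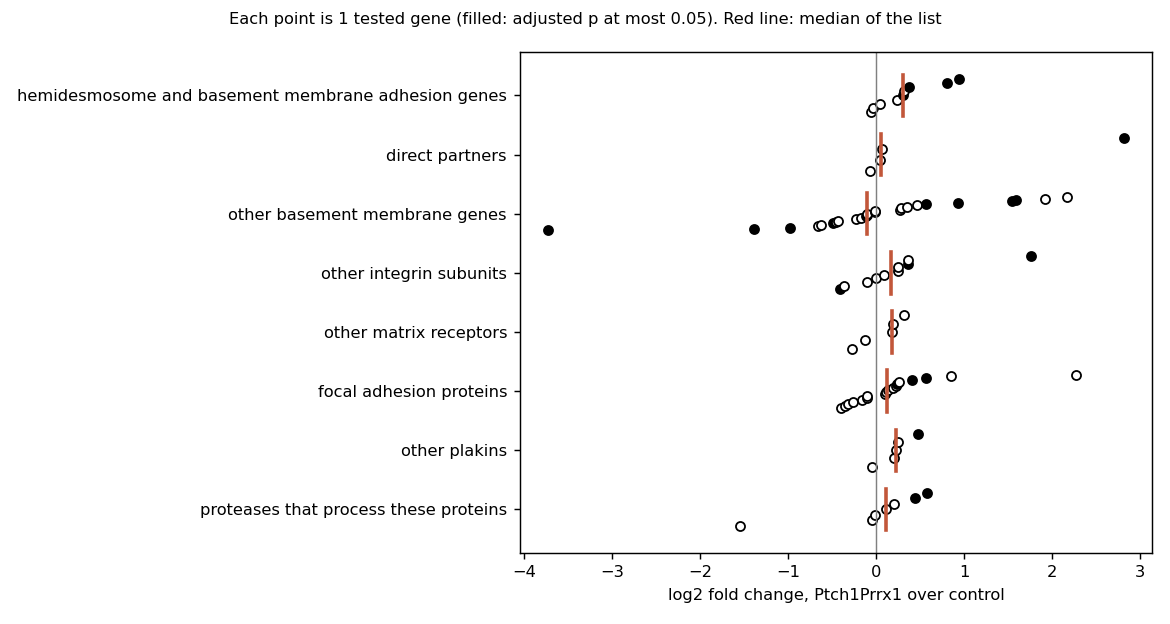
The log2 fold change (x axis) of each tested gene in the adhesion list and 7 companion lists (rows), Ptch1Prrx1 over control. Filled points have an adjusted p of at most 0.05 and red lines are list medians. The adhesion genes lie between -0.06 and 0.94, and other basement membrane genes spread from -3.72 to 2.17 with passing genes on both sides. The genes at these outer values, *Frem1* and *Col4a1*, had at most 179.9 and 61.0 normalized counts in any sample, and *Col4a1* did not pass.

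The genes most like *Itgb4* and *Col17a1* across the 6 samples were found by Pearson's r of log2 CPM among 9003 well-expressed genes. For *Itgb4* they were *Myh9* (0.998), *Egr1* (0.997) and *Pask* (0.989). For *Col17a1* they were *Taf6* (0.985), *Aldh1a7* (0.975) and *Celsr1* (0.970). These are the highest values of a search through 9003 genes over 6 points, which share the group difference and the library, and they are a description only.

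Promoter sequences were read from a set of RefSeq sequences (GRCm38.p6) where that set held an entry. Of the 9 genes 5 had an entry in the set used, *Itga3*, *Col17a1*, *Col7a1*, *Dst* and *Lamb3*, and all 4 direct partners had one. Each window is the 250 bases before a transcription start. It was searched on both strands for an AP-1 motif (TGANTCA), a CRE motif (TGACNTCA) and a TEAD motif (GGAATG, the factors that YAP binds). Of all 32851 windows of this length, 6.75% held the AP-1 motif, 7.49% the CRE motif and 12.6% the TEAD motif. The genes shown are *Lamb3* and *Krt14*, which had the highest log2 fold changes of the 9 genes and of these partners, and *Col17a1*, which did not pass. The *Lamb3* window is chr1:193301744-193301993 (plus strand), that of *Krt14* chr11:100206031-100206280 (minus strand) and that of *Col17a1* chr19:47692043-47692292 (minus strand), and the sequences read 5′ to 3′ with motif matches in capitals.
Lamb3: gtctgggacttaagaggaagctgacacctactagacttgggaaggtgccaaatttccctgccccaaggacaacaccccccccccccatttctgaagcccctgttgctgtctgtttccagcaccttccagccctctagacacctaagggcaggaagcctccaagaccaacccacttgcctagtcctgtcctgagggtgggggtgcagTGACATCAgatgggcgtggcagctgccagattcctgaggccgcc
Krt14: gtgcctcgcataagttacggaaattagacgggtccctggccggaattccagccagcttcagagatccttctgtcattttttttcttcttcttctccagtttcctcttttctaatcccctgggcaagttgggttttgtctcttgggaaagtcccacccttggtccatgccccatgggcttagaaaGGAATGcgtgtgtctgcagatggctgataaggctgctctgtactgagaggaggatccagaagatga
Col17a1: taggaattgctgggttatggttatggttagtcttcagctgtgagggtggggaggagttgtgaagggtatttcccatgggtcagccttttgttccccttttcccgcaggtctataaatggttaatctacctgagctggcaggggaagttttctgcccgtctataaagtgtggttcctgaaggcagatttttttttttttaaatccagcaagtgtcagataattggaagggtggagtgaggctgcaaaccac
The *Lamb3* window shown held 1 CRE match, whose first base is at -44 from the start. *Lamb3* has another annotated start, whose window (chr1:193301993-193302242, plus strand) held no CRE match and 1 TEAD match, at -167 from that start. The *Krt14* window held 1 TEAD match, at -66 from the start. *Itga3*, which rose, held none of the 3 motifs in either of its windows, and *Cd151*, which did not pass, held 1 CRE match in one of its windows, at -245 from the start. The windows of *Col17a1*, *Col7a1*, *Dst*, *Krt5* and *Erbin* held none, which says only that these letters are not in them. No match is a binding measurement.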

How the data were processed

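RNA-seq measured gene expression in 3 control and 3 Ptch1Prrx1 samples of corneal epithelial cells. Per the paper, the authors depleted rRNA and sequenced DNA nanoballs, whereas an Illumina kit is named in the labels. The authors aligned reads with Bowtie2 2.2.5 and estimated gene expression with RSEM 1.2.12, and the submitters' processing notes name build mm9. The deposited expected counts are RSEM estimates per gene, not scaled for depth. Reads shared between genes are divided, so 39.4% of nonzero values had a fractional part. The deposited TPM and FPKM values are scaled by the authors within each sample for effective length and depth. Whether counting used strand is not given in the sources used here, so reads of overlapping genes cannot be told apart. The number of columns of other samples was 0, and the authors' group means were not used. A chi-square test of each pair within a group gave 10.5 to 40.0 per degree of freedom, above sampling noise, so no sample was merged with another.

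Expected counts were rounded. Of 17784 genes, 12999 passed filterByExpr in edgeR 4.0.16 (R 4.3.3) and were tested with the quasi-likelihood test after TMM scaling (factors 0.960 to 1.03), with Benjamini-Hochberg adjustment over all of them. Normalized counts are CPM on TMM library sizes times the mean scaled library size. The SE was worked out from the log2 fold change and the test's F statistic. Ratios were tested on the log2 scale with exact permutation tests in scipy 1.17.1. The edgeR procedure was also run on counts simulated from the means and edgeR dispersions of these data, which cannot show how well its model fits these samples. Alternatives were DESeq2 1.42.0, limma-voom and limma-trend (3.58.1) on log2(TPM + 1) or log2(TPM + 0.1), RLE factors, other count filters, a replicate block and each sample left out in turn.

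The members and lists were chosen with earlier results of these data known. The genes named were the 9 members and 4 direct partners, in each companion list up to 6 passing genes per direction by smallest p (otherwise the 2 most abundant), the 3 genes most like *Itgb4* and *Col17a1* among those of mean CPM at least 10, and the most abundant marker of each cell type list. Mean effective lengths, worked out from the expected counts and FPKM, were added after values were seen. Some planned results are not reported here. RefSeq sequences are on GRCm38.p6 and were not matched to coordinates of the deposited table.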

Additional observations from a re-analysis of the deposited data

How the results depend on the processing

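*Itga6* and *Lamb3* passed in all 15 alternatives, each with a highest adjusted p of 0.0405, without control replicate 2. *Itgb4* passed in 9 and *Itga3* in 7 of the 15. The number of the 9 genes that rose was 4, with 5 by DESeq2, 2 by limma on log2(TPM + 1) with no filter, and 2 to 5 when a sample was left out; 0 fell in any alternative. Over all genes, 989 rose and 833 fell, against 463 and 335 by limma on log2(TPM + 1) with no filter and, with a sample left out, 68 to 753 and 25 to 572. With a fold of at least 2, 304 rose and 116 fell, against 165 and 69 by limma on log2(TPM + 1) at a mean TPM of at least 1 and 122 and 46 with no filter. With a sample left out these counts were 45 to 298 and 14 to 132. For genes of low TPM, log2(TPM + 1) gave smaller log2 fold changes, with no filter 0.20 for *Col4a4*, 0.80 for *Col18a1*, 0.82 for *Itga5*, -0.72 for *Smoc2* and -1.30 for *Frem1*. The lowest counts of passing genes came without control replicate 2, and the cause was not tested.

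The log2 fold change of *Col17a1* turned to -0.003735 by limma on log2(TPM + 1), with or without the filter, to -0.003749 with a pseudocount of 0.1, and lay between -0.02448 and 0.1654 with a sample left out. That of *Plec* lay between -0.1375 and 0.02688 and that of *Krt5* between -0.01119 and 0.08782 with a sample left out. With a sample left out, the difference in log2 ratio of *Itga3* to *Itgb1* (-0.04895 with all samples) lay between -0.1274 and 0.04852, above 0 without control replicate 2 or Ptch1Prrx1 replicate 1. That of *Plec* to *Dst* (-0.03087) lay between -0.1035 and 0.01378, above 0 without control replicate 2 or Ptch1Prrx1 replicate 2. *Col17a1*, *Plec* and *Krt5* passed in no fit, and the ratios were not tested with a sample left out.

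Samples with the same replicate number deviated together with r of 0.105, -0.0137 and 0.0189, so the numbers were not taken as pairs, though 2 of 3 controls correlated best with their own number. With a replicate block in the fit, 1042 genes rose and 850 fell, and 6 of the 9 genes rose, *Col7a1* (adjusted p = 0.0334) and *Lama3* (adjusted p = 0.0467) added. Of the 17 companion genes that passed, 12 passed with the block, and *Nid1*, *Smoc2*, *Col18a1*, *Col4a4* and *Pxn* did not (adjusted p from 0.0572 to 0.0739). At 1572 or more normalized counts in every sample, precision for the 9 genes rests mainly on the 3 samples a group.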

Other observations

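The mean effective length of a gene, worked out from its expected count and FPKM in a sample, gives a coarse view of which transcripts were read. It was 5484 bases in control and 5482 in Ptch1Prrx1 samples for *Col17a1*, and 3973 and 3980 for *Lamb3*. For *Lama3* it was 6433, 6421 and 6759 bases in control and 6247, 6371 and 6468 in Ptch1Prrx1 replicates 1, 2 and 3, so the groups overlapped. The GENCODE M21 annotation lists coding transcripts of 5551 and 10548 bases for *Lama3*, the short and long forms, but the annotation used for the deposited values is not given in the sources used here. For *Dst* it was 10119 bases in control and 10021 in Ptch1Prrx1 samples, also overlapping, where coding transcripts range from 776 to 23279 bases. For *Itga6* it was 5938 bases in control and 5929 in Ptch1Prrx1 samples, above its longest GENCODE M21 coding transcript, 4310 bases. The deposited values therefore did not rest on these coding transcripts alone. The TPM of *Itga6* relative to *Itgb4* and other genes depends on the annotation used.

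*Col4a1* and *Col4a2*, the common collagen IV chains, were higher in all Ptch1Prrx1 samples but short of the threshold, with log2 fold changes of 2.17 (adjusted p = 0.0577) and 1.92 (adjusted p = 0.0511) in edgeR's quasi-likelihood test. Both passed with DESeq2 (adjusted p = 0.0147 for *Col4a1* and 0.00682 for *Col4a2*), and *Col4a2* also among genes with at least 10 counts in every sample (adjusted p = 0.0486). Without Ptch1Prrx1 replicate 1 the log2 fold changes were 1.26 (adjusted p = 0.0936) for *Col4a1* and 1.15 (adjusted p = 0.0672) for *Col4a2*. Their means were 0.117 and 0.223 TPM in control and 0.483 and 0.810 TPM in Ptch1Prrx1 samples. Ptch1Prrx1 replicate 1 was the highest sample, with 61.0 normalized counts of *Col4a1*, against 13.3 and 19.9 in replicates 2 and 3. Both are named after their values were seen.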
